A study of Mus musculus with 6 samples.

Results

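The phagocyte NADPH oxidase was followed here through 5 of its subunit genes, *Cybb*, *Cyba*, *Ncf1*, *Ncf4* and *Rac2*, in tumor-associated macrophages (TAMs) of a mouse melanoma. The 5 genes were taken by name from the 23424 genes in the count tables, without use of their values, and all 5 were present in all 6 libraries and among the 14645 protein-coding genes tested. The cells were sorted on day 21 from intradermal tumors of YUMM1.7, a mouse melanoma cell line, grown in untreated WT C57Bl/6J female mice that were 8 weeks old at tumor induction. From live CD45+ Lin- CD11b+ cells, those with high and low surface levels of the macrophage protein encoded by *Adgre1* were collected as F4/80high and F4/80low TAMs, and poly(A)-selected RNA was sequenced in bulk. Each subset has 3 libraries, 1 from each of 3 independent experiments on pooled tumors, so a library is a pool of animals and a replicate number links the libraries of both subsets. The sort gate is the only difference between the groups in the labels, and both come from the same tumor model with no treated or tumor-free group beside them.

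The oxidase of phagocytes passes electrons from NADPH across a membrane to oxygen and makes superoxide, which feeds microbial killing and redox signaling. *Cybb* encodes gp91phox (NOX2), the catalytic chain, and *Cyba* encodes p22phox, the membrane partner that holds it in place, and together they form flavocytochrome b558. *Ncf1* encodes p47phox, the cytosolic organizer that is phosphorylated on activation, *Ncf4* encodes p40phox, which binds a phosphoinositide of phagosome membranes, and *Rac2* encodes a small GTPase that joins the assembled complex in blood cells. Monocytes, macrophages, neutrophils and eosinophils all make these subunits, and loss of any of several of them causes chronic granulomatous disease.

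Between the subsets, the level of each of the 5 genes after TMM scaling (explained below) was lower in F4/80high TAMs in 3 of 3 replicate pairs. This pattern held for 16.0% of all genes tested. As shares of all counts in a library, without TMM, *Cyba* was higher in F4/80high in pairs 1 and 3 and *Rac2* in pair 1. The shares were 0.0622% against 0.0581% and 0.00628% against 0.00616% for *Cyba*, and 0.0798% against 0.0748% for *Rac2*. The difference was small for every gene, from 1.05-fold for *Cyba* to 1.56-fold for *Ncf1* in the fit over all libraries. None of the 5 genes passed the threshold for a call, a fold change of more than 1 on the log2 scale in either direction with an adjusted p under 0.05, in edgeR's quasi-likelihood test with a batch term, which called 0 of 14645 genes (0%). *Ncf1* was the 1 subunit gene with an unadjusted p under 0.05 in this fit, where 7.60% of genes had one and 4.32% had one with the higher level in F4/80low. By DESeq2 with the same terms 148 genes were called, and by edgeR with the replicate number as a block 76 (0.519%), and 0 of the 5 subunit genes was among them in either. In that block fit 2 subunit genes, *Ncf1* and *Cybb*, had an unadjusted p under 0.05, as had 1452 of the 14645 genes.

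The second pattern lay between the batches. The sample labels name no batch, and the legend of a PCA plot in the study's supplement, the only source for it, puts replicates 1 and 2 of both subsets in batch 1 and replicate 3 of both in batch 2. The levels of 4 of the 5 genes differed between the batches by more than 3-fold, while *Ncf1* read nearly alike in all 3 experiments. Batch 2 had the smallest totals, 16045281 and 16204810 counts against 30292061 to 43604373 in batch 1, and 3 genes (*Lars2*, *Gm23935* and *Gm15564*) took 16.1% to 17.1% of its counts against 0.378% to 0.609%. Levels are therefore given by library, as CPM, the counts scaled to a common total of the genes tested after TMM scaling, which corrects for differences in library composition.

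**Figure D1:**
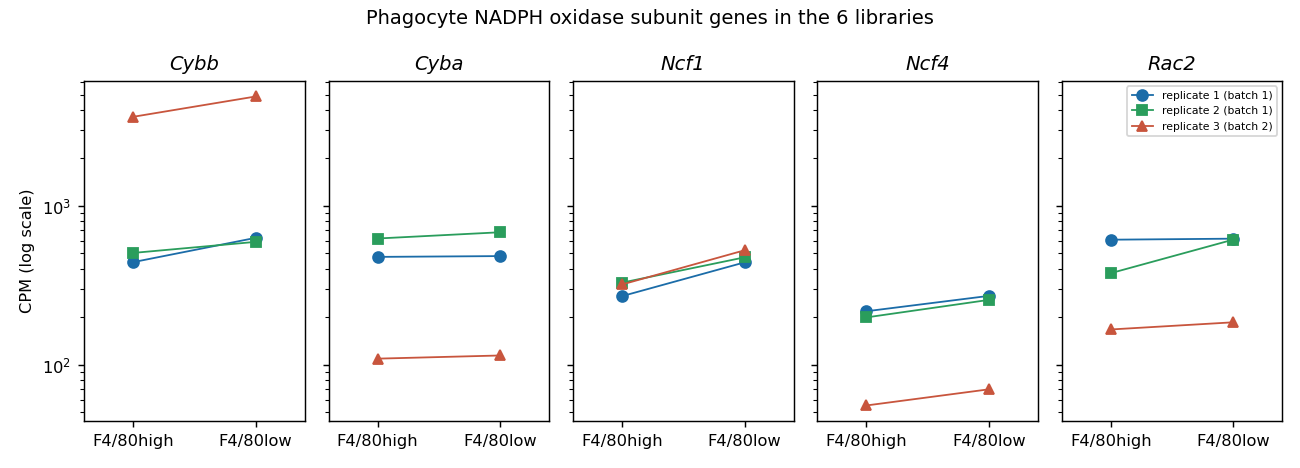
Level of each of the 5 subunit genes in CPM on a log scale in the F4/80high and F4/80low library of each replicate, with lines joining the libraries of one replicate number. After TMM scaling, every line runs upward from F4/80high to F4/80low. The replicate 3 pair stands above the others for *Cybb* (3620 and 4860 CPM) and below them for *Cyba*, *Ncf4* and *Rac2*. It is close to them for *Ncf1* (319 and 523 CPM).

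The annotated starts of 3 of the 5 genes were found in the RefSeq promoter table for GRCm38.p6. Of these 3 genes, *Cybb* and *Ncf1* varied alike over the libraries once the batch difference was removed (r = 0.98), and *Cyba* less so. With the batch left in, *Cybb* and *Ncf1* were at r = 0.34. The promoters of the 3 genes are shown because of the batch-removed values. Each runs from 250 bases before to 50 bases after the RefSeq start, 5′ to 3′ on the minus strand, at chrX:9469275-9469574, chr5:134229576-134229875 and chr8:122432891-122433190. Capitals mark matches to the motifs searched on both strands.
Cybb: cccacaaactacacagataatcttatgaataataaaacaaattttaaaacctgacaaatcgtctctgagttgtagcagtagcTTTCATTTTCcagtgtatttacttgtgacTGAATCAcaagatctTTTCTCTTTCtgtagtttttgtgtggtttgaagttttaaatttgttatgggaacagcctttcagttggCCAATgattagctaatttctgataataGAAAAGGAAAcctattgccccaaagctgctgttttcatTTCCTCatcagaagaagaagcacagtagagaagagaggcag
Ncf1: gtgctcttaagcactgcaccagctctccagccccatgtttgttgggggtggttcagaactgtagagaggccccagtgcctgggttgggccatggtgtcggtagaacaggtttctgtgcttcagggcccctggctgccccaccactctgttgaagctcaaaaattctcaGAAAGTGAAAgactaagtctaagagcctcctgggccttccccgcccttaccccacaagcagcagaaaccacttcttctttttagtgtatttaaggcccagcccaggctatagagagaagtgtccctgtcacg
Cyba: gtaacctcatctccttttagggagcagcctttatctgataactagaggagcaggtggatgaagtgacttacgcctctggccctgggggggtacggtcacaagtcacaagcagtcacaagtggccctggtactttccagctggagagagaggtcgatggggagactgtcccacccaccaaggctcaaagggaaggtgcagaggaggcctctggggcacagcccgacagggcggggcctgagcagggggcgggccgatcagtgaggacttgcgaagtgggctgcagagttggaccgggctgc

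The motifs searched were the PU.1 core GAGGAA, the AP-1 site TGANTCA, the IRF element (GAAA and GAAA parted by any 2 bases), CCAAT and TATAAA, and no match shown overlaps another. The *Cybb* window holds 3 IRF matches, at -168 to -159, -124 to -115 and -29 to -20, with an AP-1 match at -139 to -133, a CCAAT match at -56 to -52 and a PU.1 core at 10 to 15 bases past the start. The *Ncf1* window holds 1 IRF match, at -82 to -73, and the *Cyba* window holds none of the 5 motifs. Over 32851 promoters of the same length, 3.443% hold an IRF match, 7.808% the AP-1 site, 28.28% the PU.1 core, 37.41% CCAAT and 13.62% TATAAA. These are matches of letters, not shown binding sites, and their bearing on how the genes varied over the libraries was not tested. The RefSeq start of *Cybb* lies inside the longer span that the GENCODE annotation gives the gene.

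*Cybb*, on GRCm38 chromosome X at 9435252 to 9487771 on the minus strand (ENSMUSG00000015340), had 441, 504 and 3620 CPM in the F4/80high libraries of replicates 1, 2 and 3, against 627, 591 and 4860 in their F4/80low partners. The replicate 3 libraries of both subsets stood far above the rest, so the groups overlapped over all 6 libraries, although both F4/80low libraries of batch 1 were above both F4/80high ones. The log2 ratio of F4/80high to F4/80low was -0.51, -0.23 and -0.42 in pairs 1, 2 and 3. The fit gave -0.39 ± 0.21 (SE, n = 3 against 3), with a 95% interval of -0.85 to 0.08 and an edgeR adjusted p of 0.696. A difference of up to 1.81-fold higher in F4/80low or none at all lies within that interval. With the replicate number as a block, edgeR gave -0.39 ± 0.16 (SE), with an unadjusted p of 0.041 and an adjusted p of 0.473.

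*Cyba*, on chromosome 8 at 122424776 to 122432930 on the minus strand (ENSMUSG00000006519), had 476, 621 and 109 CPM in the F4/80high libraries and 481, 680 and 114 in the F4/80low libraries. Within each pair the values were close, with log2 ratios of -0.02, -0.13 and -0.07, and the groups overlapped also within batch 1. The fit gave -0.08 ± 0.24 (SE, n = 3 against 3), with an interval of -0.61 to 0.46 and an edgeR adjusted p of 0.958. The interval leaves room for a difference of up to 1.53-fold higher in F4/80low. The sign is not settled by these libraries, since the fitted value was 0.027 when F4/80high replicate 1 was left out and 0.078 when F4/80low replicate 2 was. The partner of the catalytic chain was the member with the smallest difference between the subsets. The span of *Gm20388*, on the other strand, contains *Cyba*, and that gene was not analysed here.

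*Ncf1*, on chromosome 5 at 134220053 to 134229625 on the minus strand (ENSMUSG00000015950), had 269, 327 and 319 CPM in the F4/80high libraries and 439, 472 and 523 in the F4/80low libraries. The highest F4/80high library lay below the lowest F4/80low library, so the groups did not overlap, as for 5.20% of all genes tested, and *Ncf1* was the only one of the 5 genes for which this held. The means were 305 ± 31.4 and 478 ± 42.4 CPM (SD, n = 3 each). The log2 ratios were -0.71, -0.53 and -0.71 in pairs 1, 2 and 3, with -0.61 in a fit of batch 1 alone. The fit gave -0.65 ± 0.21 (SE), which is 1.56-fold higher in F4/80low with a 95% interval of 1.12 to 2.18. This interval is for 1 gene and does not allow for the number of genes tested, and with that number the edgeR adjusted p was 0.524, 0.209 with the replicate block, and 0.119 by DESeq2. Over all alternatives its adjusted p ran from 0.0542 to 1 and the difference from -0.77 to -0.58, without a change of sign.

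One limit on the *Ncf1* value is its neighbor. *Gtf2ird2*, on the plus strand, overlaps the gene span of *Ncf1* over 4303 bases, and the counting rule's use of strand is not given in the sources used here. *Gtf2ird2* had 10813 counts over the 6 libraries against 71770 for *Ncf1*, and its own log2 difference was -1.04. What part of the *Ncf1* difference is shared with it was not tested.

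*Ncf4*, on chromosome 15 at 78244801 to 78262580 on the plus strand (ENSMUSG00000071715), had 216, 198 and 55.2 CPM in the F4/80high libraries and 270, 255 and 69.8 in the F4/80low libraries. Its 3 pairs were the most even of the 5 genes, with log2 ratios of -0.32, -0.37 and -0.34. The groups overlapped over 6 libraries because both replicate 3 libraries were low, but not within batch 1. The fit gave -0.34 ± 0.20 (SE, n = 3 against 3), with an interval of -0.80 to 0.12 and an edgeR adjusted p of 0.710.

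*Rac2*, on the same chromosome at 78559167 to 78572783 on the minus strand (ENSMUSG00000033220), had 610, 376 and 166 CPM in the F4/80high libraries and 619, 611 and 184 in the F4/80low libraries. Here the pairs were uneven, with log2 ratios of -0.02, -0.70 and -0.15, and the low value of F4/80high replicate 2 made most of the difference. The fit gave -0.26 ± 0.25 (SE, n = 3 against 3), with an interval of -0.82 to 0.29 and an edgeR adjusted p of 0.812. The fitted value ran from -0.47 to -0.10 as libraries were left out in turn. *Rac2* and *Ncf4* lie 296586 bases apart with 9 tested genes between them, of which 6 had a lower level in F4/80high and 1 passed an unadjusted p of 0.05.

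**Figure D2:**
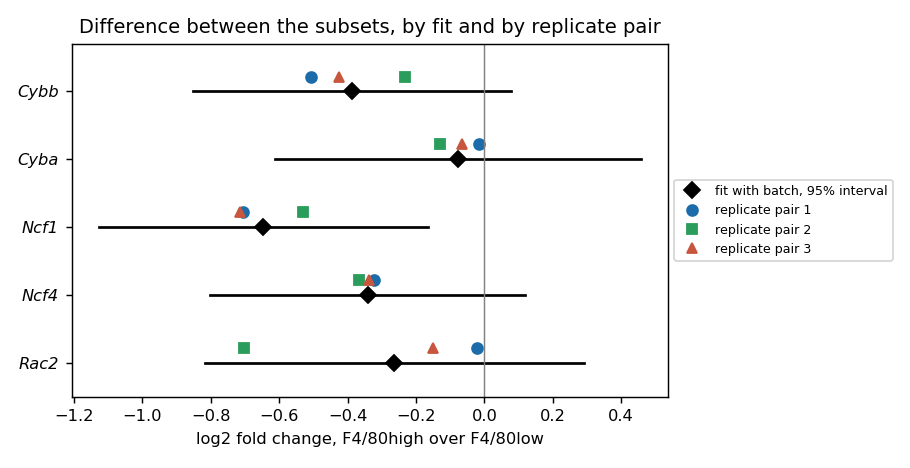
Log2 fold change of F4/80high over F4/80low for the 5 subunit genes, with colored points for the replicate pairs, and black diamonds and bars for the fit with a batch term and its 95% interval for a single gene. After TMM scaling, all 15 pair values lie below 0, from -0.02 to -0.71, and the interval of *Ncf1* alone lies wholly below 0.

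Over the 5 genes the median log2 difference was -0.34, beside 0.01 over all genes tested. In the ranking of all genes by that difference, 14.6% of genes were below *Ncf1*, 23.5% below *Cybb*, 25.7% below *Ncf4*, 29.9% below *Rac2* and 42.6% below *Cyba*. The subunit genes thus stood in the lower part of the ranking without reaching its end. In bulk RNA, fewer cells that make the oxidase and less oxidase mRNA in each cell cannot be told apart.

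*Rac1*, the widely expressed paralog of *Rac2*, had 465, 646 and 149 CPM in the F4/80high libraries and 542, 500 and 192 in the F4/80low libraries, a log2 difference of -0.06 with no one direction over the pairs. *Rac3*, the third paralog, was far below both at 1.14 to 14.6 CPM, with each F4/80high library above its F4/80low partner (log2 difference 1.20 ± 0.58, edgeR, not called).

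The batch difference was many times larger than the subset difference for 4 of the 5 genes. From batch 1 to batch 2, *Cybb* was higher by 2.97 ± 0.21 on the log2 scale (SE, edgeR adjusted p = 9.94e-06), and *Cyba* (-2.34 ± 0.28, edgeR adjusted p = 2.28e-04), *Ncf4* (-1.91 ± 0.24, edgeR adjusted p = 2.68e-04) and *Rac2* (-1.65 ± 0.28, edgeR adjusted p = 0.00150) were lower. *Ncf1* differed by 0.15 ± 0.22 (edgeR adjusted p = 0.625). The share of all genes called for the batch term was 42.6%, with 20.0% higher in batch 2 and 22.7% lower, so that 4 of 5 is read against a wide background. The genes of both chains of flavocytochrome b558 thus moved in opposite directions between the batches.

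Scaling moves the batch values of all genes together, as the median gene differed by -0.35 after TMM scaling, -0.16 with edgeR's RLE (relative log expression) scaling and -1.37 with library size alone. Relative to that median *Cybb* stood at 3.32, *Ncf1* at 0.50, *Rac2* at -1.30, *Ncf4* at -1.56 and *Cyba* at -1.99 after TMM scaling. With library size alone the *Ncf1* value was -0.87 in place of 0.15, and the directions of the other 4 genes were kept. Gene length moved with the batch difference over all genes, whose median ran from -1.19 below 1 kb and -1.27 at 1 to 2 kb to 0.62 above 6 kb. *Cyba* is the shortest of the 5 in the tables (758 bases) and *Cybb* the longest (5808 bases), and the part that length plays in their batch values was not tested.

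**Figure D3:**
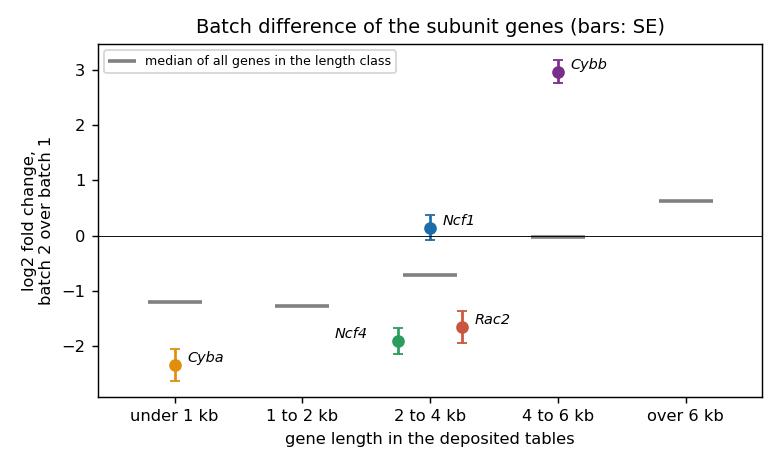
Log2 fold change of batch 2 over batch 1 for the 5 subunit genes, placed by the gene length in the count tables, with bars for the SE and grey dashes for the median of all genes in each length class. *Cybb* (2.97) stands above the median of its class, and *Cyba*, *Ncf4* and *Rac2* stand below theirs. *Ncf1* (0.15) is near 0 and above the median of its class (-0.71).

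To compare levels between the genes, CPM was divided by the gene length in kilobases. In batch 1 the mean level per kilobase was 744 for *Cyba*, 183 for *Rac2*, 116 for *Ncf4*, 103 for *Ncf1* and 93.1 for *Cybb*. The last 3 genes stood close together and changed places between libraries, whereas *Cyba* was above the other 4 in all 4 libraries. In batch 2 the mean was 730 for *Cybb*, 147 for *Cyba*, 115 for *Ncf1*, 57.7 for *Rac2* and 30.9 for *Ncf4*. *Cybb* was thus the lowest of the 5 genes by the batch 1 mean and the highest in batch 2, 7.84-fold higher per kilobase, while *Cyba* was 5.06-fold lower. All 5 genes were highly expressed in every library, and the lowest rank per kilobase was above 86.6% of all genes tested, for *Ncf4*.

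**Figure D4:**
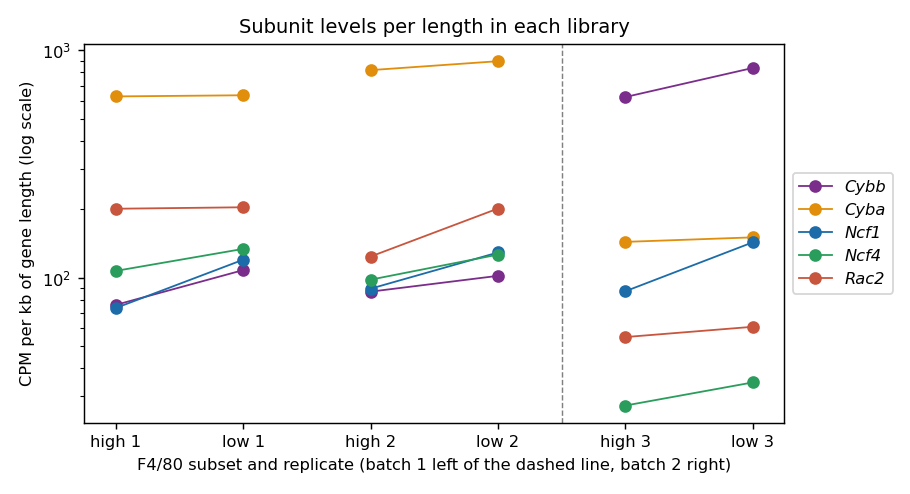
CPM per kilobase of gene length on a log scale for each subunit gene in each library, with lines joining the F4/80high and F4/80low library of a replicate and a dashed line between batch 1 and batch 2. *Cyba* is the highest in the 4 libraries of batch 1, and *Cybb* is the highest in both libraries of batch 2.

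Ratios between subunit genes within a library show which of them keep their proportion. The ratio of *Ncf4* to *Rac2* per kilobase was the steadiest, at 0.499 to 0.791 over all 6 libraries, and that of *Cyba* to *Ncf4* ran from 4.35 to 8.36. The ratio of *Cybb* to *Cyba* was 0.106 to 0.170 in batch 1 and 4.34 to 5.57 in batch 2. Between the subsets, the ratio of *Cyba* to *Ncf1* was higher in F4/80high in all 3 pairs, by 0.69, 0.40 and 0.65 on the log2 scale, and that of *Cybb* to *Ncf1* by 0.20, 0.30 and 0.29. The ratios of *Cyba* to *Ncf4* (0.30, 0.24 and 0.27) and to *Rac2* (0.005, 0.57 and 0.08) were also higher. Those of *Cybb* to *Cyba* (-0.49, -0.10 and -0.36) and *Ncf1* to *Ncf4* (-0.38, -0.16 and -0.38) were lower. The remaining ratios among the 5 genes changed direction between pairs. All of these restate the pair values of the single genes. The ratio of *Rac2* to *Rac1* ran from 0.862 to 1.94, and its pair values were 0.20, -1.07 and 0.22.

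With the batch difference removed, the log2 CPM of *Cybb* and *Ncf1* correlated at r = 0.98 over the 6 libraries, *Cybb* and *Ncf4* at 0.88, *Ncf1* and *Ncf4* at 0.87 and *Ncf4* and *Rac2* at 0.73. *Cyba* correlated with the other 4 at -0.38 to 0.40. These values describe 6 libraries that share their subset difference and scaling. Among 7022 genes compared, 152 correlated with *Cybb* above 0.9, 71 with *Cyba*, 130 with *Ncf1*, 332 with *Ncf4* and 334 with *Rac2*. The 3 genes most like each were *Agtpbp1*, *Slc25a45* and *Dhx30* for *Cybb*, *Acta2*, *Bscl2* and *Prep* for *Cyba*, *Slc25a12*, *Clasrp* and *Alox5* for *Ncf1*, *Stx5a*, *Herc1* and *Agpat4* for *Ncf4*, and *Col1a2*, *Nfkb1* and *Gas1* for *Rac2*, all at r above 0.99. With the batch left in, 0 of the 3 were kept for each gene, and *Cybb* and *Cyba* then correlated at -0.97. *Cybb* and *Ncf1* were then at 0.34, *Cybb* and *Ncf4* at -0.95, *Ncf1* and *Ncf4* at -0.04 and *Ncf4* and *Rac2* at 0.98.

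Of 62 other genes of the oxidase pathway, 56 were tested, and 41 had a lower and 15 a higher level in F4/80high, with a median log2 difference of -0.26. Over all genes tested, 7210 of 14645 had a lower level in F4/80high. None of the 56 was called by edgeR, with the batch term or the block. An unadjusted p under 0.05 was found for 7 genes with the lower level in F4/80high and for 2 with the higher. Over all genes this held for 4.32% for the first kind and 480 of 14645 for the second. Of 8 genes that control the GTPase, the exchange factor *Vav2* was at 0.73 ± 0.31 and *Tiam1* at -1.001 ± 0.41 (log2, SE). Of 14 kinases and lipases that drive assembly 12 were lower, with *Syk*, a kinase downstream of Fc receptors, at -0.78 ± 0.30 and *Prdx6*, which has phospholipase A2 activity, at -0.69 ± 0.25.

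Of 9 transcription factors tested that are known to act on oxidase genes, 6 were lower and 3 higher. *Spi1*, which encodes PU.1, was at -0.32 ± 0.21 and *Irf8* at 0.29 ± 0.25 (log2, SE). The C/EBP genes went different ways, with *Cebpa* at 1.14 ± 0.25, *Cebpb* at -0.84 ± 0.24 and *Cebpe*, a factor of granulocyte maturation, at -1.35 ± 0.39. *Cebpa* was not called by edgeR (adjusted p = 0.440) but was called by DESeq2 (1.15 ± 0.28, adjusted p = 0.0101), the 1 pathway gene that DESeq2 called. Of 7 genes that supply NADPH 6 were lower, with *Taldo1* of the pentose phosphate pathway at -0.69 ± 0.21, and 5 of 6 genes that handle superoxide and peroxide were lower, none with an unadjusted p under 0.05. Of 9 genes of other NADPH oxidases, 4 were tested and none reached a mean of 0.8 CPM in either subset, so the oxidase genes detected at high level were those of the phagocyte enzyme.

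**Figure D5:**
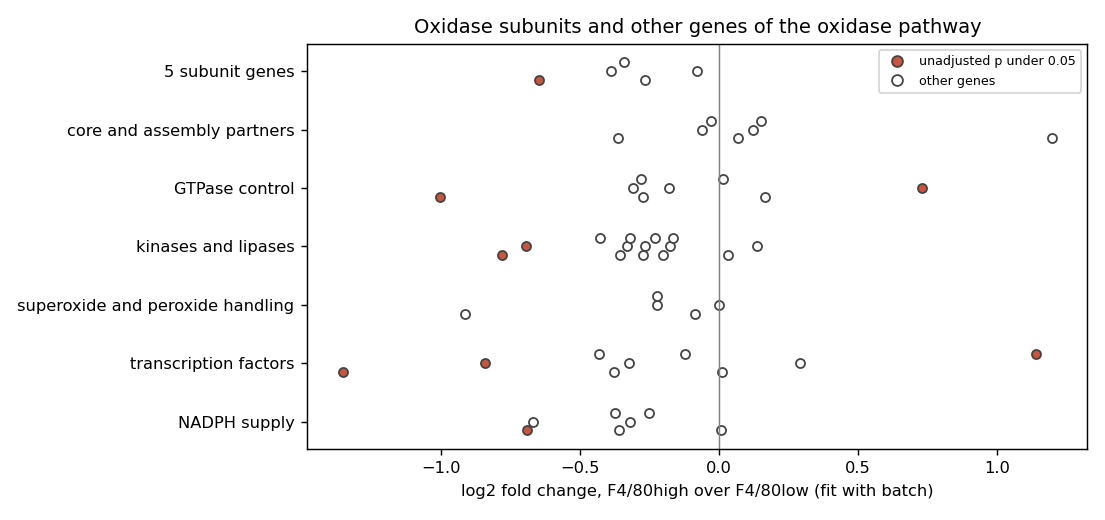
Log2 fold change of F4/80high over F4/80low in the fit with a batch term for the 5 subunit genes and for 50 other pathway genes whose subset means sum to at least 2 CPM, by list. Filled points have an unadjusted p under 0.05, and most points lie to the left of 0 in each list but the core and assembly partners, which include *Rac1* and *Rac3*.

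Markers of 3 more cell types that carry this oxidase moved with the subset difference. The study aligned F4/80low TAMs with monocyte-derived cells, so the monocyte markers do not by themselves mark cells other than the sorted ones. All 12 neutrophil markers had a lower fitted level in F4/80high, with a summed level of 781 to 2252 CPM against 1595 to 5177 in F4/80low, and the sum was lower in each pair, by log2 ratios of -1.20, -1.74 and -1.03. Neutrophil *Elane* was at 0 in 2 libraries, 1 of each subset. All 6 monocyte and all 6 eosinophil markers also had a lower fitted level in F4/80high, and the summed level of each list was lower in each pair (859 to 3917 against 2389 to 7806 CPM for monocytes, 88.7 to 175 against 245 to 592 CPM for eosinophils, with *Epx* at 0 in 1 library). Single markers did not all follow in every pair, as the log2 ratio of *Ly6c2* was 0.43 in pair 1 and that of *Epx* 0.21 in pair 2. By edgeR with the replicate block, 7 of the neutrophil, 2 of the monocyte and 0 of the eosinophil markers were called, beside 76 of 14645 genes (0.519%). The pair with the largest difference in these 3 sums was pair 2, in which *Ncf1* and *Cybb* had their smallest difference and *Cyba*, *Ncf4* and *Rac2* their largest. The part of these cells in the oxidase values was not tested.

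The macrophage markers ran the other way, with 8 of 10 higher in F4/80high and a summed level higher in each pair (5801 to 29242 against 5119 to 12563 CPM). *Adgre1* itself had 273, 539 and 360 CPM in the F4/80high libraries and 243, 327 and 183 in the F4/80low libraries. Its log2 difference was 0.67 ± 0.30 (SE, edgeR adjusted p = 0.664, not called). After TMM scaling, the subunit genes and *Adgre1* thus differed in opposite directions in every pair. For *Cyba* and *Rac2* this depended on the scaling. Dendritic cell (5 of 5) and fibroblast markers (5 of 5) had a lower fitted level in F4/80high, the latter at 276 to 1370 against 681 to 1653 CPM in sum, and the T and NK cell markers (6 of 6) had a higher fitted level, although their sum was lower in F4/80high in pair 2 (log2 ratios 1.58, -0.65 and 1.08). Of 6 melanoma markers, 3 were in the tables and summed to 1.19 to 3.08 CPM, with *Mlana* at 0 in 5 of 6 libraries.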

How the data were processed

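The deposited files are 1 table per library with raw read counts per gene, which the authors made with the standard alignment pipeline of their sequencing center. The aligner, annotation and strand rule are not given in the sources used here. Of the gene IDs, 99.4% were in GENCODE M21 (GRCm38). Protein-coding genes by M21 with at least 10 counts over the 6 libraries were tested (14645 of 15813) in R 4.3.3 with edgeR 4.0.16, the quasi-likelihood test, TMM, terms for batch and subset, and Benjamini-Hochberg adjustment. limma 3.58.1 and DESeq2 1.42.0 served the batch removal and the alternatives. CPM used a prior count of 2 on the log2 scale for pair ratios. One gene of the pathway lists is counted in them but not reported here. The steps were tested on simulated data, and no library was a copy of another.

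The genes, lists and tests were chosen with earlier results of these data known. Named genes are the 5 subunit genes, the paralogs of *Rac2*, *Adgre1*, from each pathway list up to 3 genes a direction by smallest p, and the 3 genes most like each subunit gene at or above a mean of 4 on the log2 CPM scale. *Gtf2ird2*, *Gm20388*, *Ly6c2*, *Lyz2*, the markers at 0 and the 3 abundant genes of batch 2 were added after values were seen. Replicates of one number were taken as pairs, as the study states 3 independent experiments. Their deviations from the mean of their subset correlated at 0.745, 0.729 and 0.907 over 10072 genes. These values carry the batch difference, which sets replicate 3 apart in both subsets, so they cannot decide the pairing. Within batch 1 the value was 0.242. Totals were 16045281 to 43604373 counts, so that 3 counts are 0.0688 to 0.187 CPM of the total. Alternatives were other scalings, filters, biotypes, thresholds, DESeq2, no batch term, the block, batch 1 alone and leaving out each library, and DESeq2 with the block was added after the data were seen.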

Additional observations from a re-analysis of the deposited data

How the results depend on the processing

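The calls over all genes depended on the model. edgeR with batch called 0 genes, with 1113 at an unadjusted p under 0.05, DESeq2 with batch called 148, edgeR with the replicate block 76, and DESeq2 with the replicate block, added after the data were seen, 354. Leaving out single libraries gave 0 to 57 calls, 57 without F4/80high replicate 1. The cause was not tested. None of the 5 subunit genes was called for the subset difference under any of these settings, the pairing by replicate number included, and DESeq2 called 1 pathway gene with batch and 1 with the block.

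*Cybb*, *Ncf1*, *Ncf4* and *Rac2* kept a lower level in F4/80high in all 19 alternatives, and *Cyba* in 17, with 0.027 when F4/80high replicate 1 was left out and 0.078 when F4/80low replicate 2 was (-0.23 to 0.078 over single libraries left out). These are not 19 separate checks, since a changed threshold leaves the differences as they were. Leaving out either replicate 3 library also gave nearly the same values as batch 1 alone (-0.37 for *Cybb* in each). For the batch term, 4 subunit genes were called with TMM and with edgeR's RLE scaling and 5 with library size alone, where *Ncf1* was at -0.87 in place of 0.15. Without the length correction the order of levels changed in batch 1, with *Cybb* at rank 3 and *Ncf4* at rank 5, and in batch 2, with *Cyba* at rank 4, *Ncf1* at rank 2 and *Rac2* at rank 3. With the batch left in, 0 of the 3 most alike genes were kept for *Cybb*, *Cyba*, *Ncf1*, *Ncf4* and *Rac2*.

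Depth does not limit these genes, which had 41029 to 168489 counts in total. With 3 libraries a subset, the intervals leave room for differences of up to 1.53-fold to 2.18-fold. Batch 2 holds 1 library a subset and gives no test of its own.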
